A study of Drosophila melanogaster with 2 samples.

Results

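The regions described here are the peaks of CG9215-eGFP binding on the fly autosomes whose summits lay between a pair of divergent start sites, that is, between the start of a minus-strand gene on the left and the start of a plus-strand gene on the right. Chromatin immunoprecipitation and sequencing was done on whole Drosophila melanogaster embryos collected over 0 to 24 h of development. The strain, labelled CG9215-GFP, carries an insertion that targets CG9215 and expresses a CG9215-eGFP fusion protein, which was pulled down with an antibody against GFP. Both libraries belong to 1 group, biological replicates 1 and 2 from different biosamples, with chromatin sheared by sonication in a Bioruptor to a labelled size range of 200 to 800. The labels do not state the promoter that drives the fusion protein, and its binding was read across all tissues of the embryo at once. The control library named in the labels was not analysed here, and there is no second condition, so the data allow no comparison of treatments and no test over samples.

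Of the 3718 peaks in the authors' conservative list, which compares both replicates, 2925 lay on chromosomes 2, 3 or 4. The summit was within 500 bp of an annotated start site for 1562 of these, and for 793 the nearest sites on either side diverged and belonged to different genes. The start sites were at most 1000 bp apart for 610 peaks, which are called divergent-gap peaks below, and the interval between such sites is called a gap. A summit inside a gap of that width is never more than 500 bp from a site, so the 610 are set by the 1000 bp limit, which took away 183 of the 793. Just inside it were the peaks between Smg5 and Ance, 984 bp apart with a signal of 110.3, and between CG9663 and CG3277, 970 bp apart with a signal of 1916. Just outside it were the peaks before Atg13, in a gap of 1037 bp with a signal of 108.6, and between lncRNA:CR44986 and CG9044, in a gap of 1053 bp with a signal of 185. The signal is the value that the authors' peak caller gave each peak, and its scaling is not stated.

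Head-to-head gene pairs share the DNA between their start sites as the upstream region of both genes, and they are frequent in the compact fly genome. Many of them encode proteins that every cell uses, and their promoters are known in flies for the DNA replication-related element, bound by Dref, and for the insulator protein BEAF-32, whose sites hold the core CGATA. CG9215 encodes a zinc-finger protein of the C2H2 type, a class whose members typically bind DNA in a sequence-specific way.

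To show what the bound DNA looks like, the whole gap is printed for the 8 divergent-gap peaks of highest signal whose gap was at most 300 bp and held no annotated exon. Sequences are from the RefSeq copy of Release 6 (dm6), plus strand, from the base after the minus-strand start site to the base before the plus-strand start site. Capitals mark the 21 bases centred on the summit of the conservative peak.
S6k and kri, chr3L:5810932-5810972: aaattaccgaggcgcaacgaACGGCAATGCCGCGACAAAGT
CG7601 and CIA30, chr3R:29736746-29736964: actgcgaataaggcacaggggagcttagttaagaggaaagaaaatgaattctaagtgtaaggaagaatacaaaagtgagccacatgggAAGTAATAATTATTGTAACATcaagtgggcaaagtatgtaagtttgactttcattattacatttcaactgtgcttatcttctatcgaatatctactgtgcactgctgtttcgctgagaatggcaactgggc
Tcs5 and CHMP2B, chr3L:5139396-5139618: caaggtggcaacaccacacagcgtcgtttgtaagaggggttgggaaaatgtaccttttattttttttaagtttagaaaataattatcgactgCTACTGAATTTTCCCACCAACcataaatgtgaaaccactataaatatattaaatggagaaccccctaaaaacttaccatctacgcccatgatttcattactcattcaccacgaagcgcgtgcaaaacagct
Atat and Shc, chr3L:9426759-9427009: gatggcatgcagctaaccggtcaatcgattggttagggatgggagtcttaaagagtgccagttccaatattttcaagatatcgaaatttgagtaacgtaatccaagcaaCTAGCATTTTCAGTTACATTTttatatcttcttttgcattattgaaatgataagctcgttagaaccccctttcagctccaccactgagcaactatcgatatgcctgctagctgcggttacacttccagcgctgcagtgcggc
Art3 and mRpS10, chr3R:15229409-15229664: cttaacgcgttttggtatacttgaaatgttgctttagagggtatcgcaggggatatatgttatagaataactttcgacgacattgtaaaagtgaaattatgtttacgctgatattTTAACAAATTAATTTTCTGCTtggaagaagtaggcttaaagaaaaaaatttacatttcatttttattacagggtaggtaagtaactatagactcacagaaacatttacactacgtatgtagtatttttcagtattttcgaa
Lon and PIG-F, chr3L:19612200-19612454: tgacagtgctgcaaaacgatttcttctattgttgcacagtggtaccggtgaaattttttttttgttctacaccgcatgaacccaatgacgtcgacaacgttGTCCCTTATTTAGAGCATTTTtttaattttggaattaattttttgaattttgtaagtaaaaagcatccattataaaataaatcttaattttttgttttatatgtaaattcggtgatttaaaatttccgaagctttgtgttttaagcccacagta
CG13390 and CG17294, chr2L:8376798-8377034: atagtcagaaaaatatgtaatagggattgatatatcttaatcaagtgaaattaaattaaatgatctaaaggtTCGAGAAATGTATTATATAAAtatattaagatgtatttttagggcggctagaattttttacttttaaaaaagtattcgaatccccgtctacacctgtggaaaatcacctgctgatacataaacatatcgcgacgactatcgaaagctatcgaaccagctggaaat
Wsck and atl, chr3R:24630076-24630290: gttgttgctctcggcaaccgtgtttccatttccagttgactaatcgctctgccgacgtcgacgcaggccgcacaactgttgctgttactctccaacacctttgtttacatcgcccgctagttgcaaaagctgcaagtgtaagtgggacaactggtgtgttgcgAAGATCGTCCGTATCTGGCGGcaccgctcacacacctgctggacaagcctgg

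Most of these gaps were rich in A and T, and in 7 of the 8 the summit lay within 50 bp of the middle. The G+C content was 30.1% in the Art3 and mRpS10 gap, 30.6% in the Lon and PIG-F gap and 30.8% in the CG13390 and CG17294 gap. The CG7601 and CIA30 gap, at 37.9%, and the Tcs5 and CHMP2B gap, at 38.1%, were intermediate. A higher G+C content was found in the 41 bases between S6k and kri, at 53.7%, and in the Wsck and atl gap, at 54.4%. Those gaps hold no CGATA on either strand, and neither does the Lon and PIG-F gap. The DNA replication-related element, TATCGATA, occurs once among the 8 gaps, at base 202 of the 251 between Atat and Shc. The summit is at base 120, so the element lies towards the Shc end.

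Divergent gaps held summits between the start sites more often than gaps in other orientations. The autosomal annotation has 2628 divergent gaps of at most 1000 bp, and 578 of them, or 22.0% (20.5 to 23.6), held a summit. Percentages of gaps or peaks are given with Wilson 95% intervals, which cover the sampling of gaps or peaks only. Among gaps between neighbouring start sites of different genes on the same strand, 31 of 1429 held a summit, or 2.17% (1.53 to 3.06). Where the start sites faced each other, 15 of 470 gaps did, or 3.19% (1.94 to 5.198). These orientations differ in what lies in the gap, since a tandem or convergent gap includes transcribed DNA and a divergent gap is upstream of both genes. The 500 bp before each protein-coding start site were therefore also examined, although in gaps under 500 bp this window runs past the partner's start site and a summit can count for both sites. A summit lay there for 1208 of 4640 sites that border a divergent gap, or 26.0% (24.8 to 27.3). For the other 11338 protein-coding sites the share was 8.46% (7.96 to 8.98), with 959 occupied. Every distinct transcript start was counted, and alternative starts of genes that border a divergent gap were not left out of the others. These shares therefore do not compare promoters gene by gene.

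Occupancy of divergent gaps peaked at widths of 200 to 400 bp, where each width class excludes its lower and includes its upper limit. Of 518 gaps of 200 to 300 bp, 191 held a summit, or 36.9% (32.8 to 41.1), and of 370 gaps of 300 to 400 bp, 132 did, or 35.7% (31.0 to 40.7). The share fell away on both sides. It was 5.30% (3.53 to 7.90) of 415 gaps of at most 100 bp and 10.6% (7.998 to 14.0) of 404 gaps of 100 to 200 bp. On the wide side it was 27.5% (22.5 to 33.2) of gaps of 400 to 500 bp, 19.9% (16.4 to 24.0) of gaps of 500 to 750 bp and 14.1% (10.2 to 19.1) of wider gaps. A narrow gap offers a smaller target, so summits within 250 bp of the gap midpoint were also counted whether or not they fell inside the gap. That count gave 19.5% (15.99 to 23.6) for gaps of at most 100 bp and 17.8% (14.4 to 21.9) for 100 to 200 bp, against 38.8% (34.7 to 43.1) for 200 to 300 bp. Counted in this way, convergent gaps rose to 7.87% (5.77 to 10.7) over all widths, tandem gaps gave 1.96% (1.36 to 2.82) and divergent gaps 24.7% (23.1 to 26.4). Convergent gaps up to 100 bp gave 15.7% (9.01 to 26.0) and those of 100 to 200 bp 12.7% (6.58 to 23.1), and both intervals overlap those of divergent gaps of the same width. With a target of equal size, the intervals of the divergent gaps up to 200 bp still lay below those of divergent gaps of 200 to 400 bp.

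**Figure D1:**
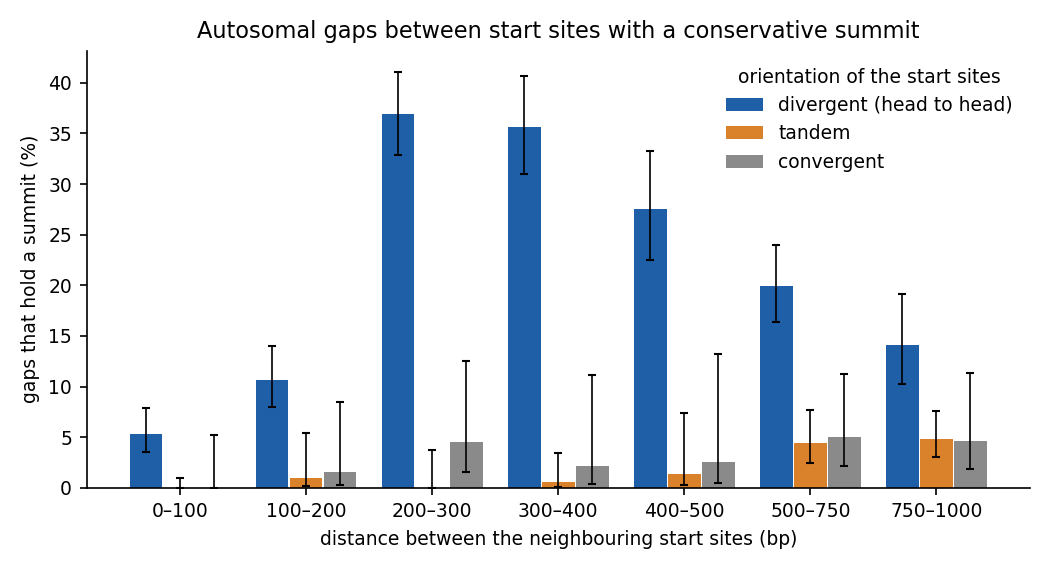
Share of autosomal gaps between neighbouring start sites of different genes that held a conservative summit (vertical axis, %), by distance between the sites (horizontal axis, bp) and by orientation. Bars are shares and lines Wilson 95% intervals. Divergent gaps reach 36.9% at 200 to 300 bp, while no class of tandem or convergent gaps exceeds 5.05%.

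The kind of gene beside the gap also went with occupancy. Where both start sites belonged to protein-coding genes, 547 of 2104 gaps held a summit, or 26.0% (24.2 to 27.9). With a coding gene on 1 side only, 31 of 431 did, or 7.19% (5.11 to 10.03). None of the 93 gaps without a coding gene held one, and the upper end of that interval is 3.97%. The difference was as large at equal widths, since at 200 to 500 bp the shares were 39.96% (36.9 to 43.1) of 966 gaps with coding genes on both sides and 6.90% (3.79 to 12.2) of 145 with a coding gene on 1 side. Of the 610 peaks, 576 lay between coding genes, which is 94.4% (92.3 to 96.0), whereas 80.1% of all divergent gaps are of that kind. In the other 34 the partner was an antisense RNA in 16, a long non-coding RNA in 11, a tRNA in 2, a pseudogene in 2 and another non-coding RNA in 3, and in 28 of the 34 the summit was nearer the coding gene. For 30 of the 610 a start site is shared by several genes, and 66 lay within the span of a further gene. Chromosome arm 3R held 195 divergent-gap peaks, 3L 151, 2L 139 and 2R 124. The share of gaps occupied was 25.4% (22.4 to 28.6) on 3R, 24.0% (20.7 to 27.6) on 3L and 21.4% (18.4 to 24.8) on 2L, and lower, at 17.6% (14.9 to 20.7), on 2R. Chromosome 4 has 1 such peak among 23 divergent gaps. It lies between PlexA, which encodes a semaphorin receptor of growing axons, and asRNA:CR44031, with a signal of 289 in replicate 1 and 212 in replicate 2.

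The 610 divergent-gap peaks ranged in signal from 3.25 to 2999.9 with a median of 195 and quartiles of 123.2 and 346. The 952 other autosomal peaks within 500 bp of a start site had a median of 171, and the 1363 peaks farther away had a median of 120. Divergent-gap peaks are 610 of all 2925 autosomal peaks. Ranked by signal, they made up 94 of the 292 strongest, or 32.2% (27.1 to 37.8). At the other end they made up 25 of the 293 weakest, or 8.53% (5.85 to 12.3). Of the 100 strongest peaks 33 were in a divergent gap, 51 were among the 952 others near a start site and 16 lay farther away. For their number, the other peaks near start sites were thus about as frequent there. A signal under 20 was found for 6 divergent-gap peaks, and all 6 overlapped a stronger peak. Among all 2925 autosomal peaks 86 had so low a signal and 85 of them overlapped a stronger peak. The overlap was therefore common to weak peaks of the list.

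In each replicate the peak with the nearest summit was taken as the match, and 603 of the 610 had a match in both. The median signal of the matched peaks was 100.9 in replicate 1 and 96.5 in replicate 2. Over the 603 pairs the rank correlation of the replicate signals was 0.875 and the Pearson correlation of their log2 values was 0.915. These values are a description, since every peak was read from the same libraries. The conservative list was itself thresholded for reproducibility between these replicates, which favours such agreement. Replicate 1 was higher for 339 peaks and replicate 2 for 264, with a median log2 ratio of replicate 1 to replicate 2 of 0.06, and 22 peaks differed by more than 2-fold. A neighbouring peak can be matched in error: 82 of the 610 overlapped another conservative peak, and 38 shared their match in replicate 1 with another divergent-gap peak, as did 22 in replicate 2.

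Each replicate also has a thresholded list of its own, and a peak was counted as passing where it overlapped that list by at least 1 bp. In replicate 1, 540 of the 610 divergent-gap peaks passed, or 88.5% (85.8 to 90.8), where the background over all 2925 autosomal peaks was 78.6%. In replicate 2, 497 passed, or 81.5% (78.2 to 84.4), where the background was 64.6%. In both replicates 464 passed, or 76.1% (72.5 to 79.3), against a background of 59.3%. The share was 69.4% (66.4 to 72.3) of the other promoter peaks and 44.8% (42.1 to 47.4) of the peaks farther away, so the order of the classes was the same as for the median signal. A further 76 divergent-gap peaks passed in replicate 1 alone, 33 in replicate 2 alone and 37 in neither.

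**Figure D2:**
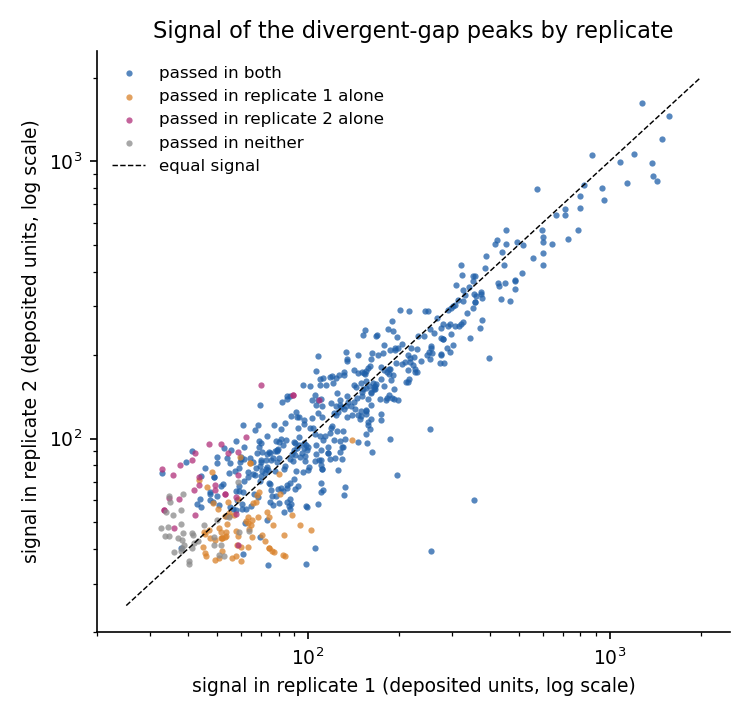
Signal of the matched peak in replicate 1 (horizontal axis) and replicate 2 (vertical axis) for the 603 divergent-gap peaks matched in both, in the deposited units on log scales. Colours give the thresholded lists that the peak passed. The points run along the dashed line of equal signal, and peaks that passed in 1 replicate alone or in neither cluster at the low end.

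The 20 divergent-gap peaks of highest signal all passed in both replicates, and 19 of the 20 lay between coding genes. Their gaps were 42 to 970 bp wide with a median of 312 bp, and 10 of the 20 summits were within 50 bp of the gap midpoint. Replicate 1 gave the higher signal for 16 of them, and no difference exceeded 2-fold. The first was between CG1648 and CG34033 on 2R, with a signal of 1577 in replicate 1 and 1452 in replicate 2. The second separates MED7, a subunit of the Mediator complex that links activators to RNA polymerase II, from Cap-H2, a subunit of condensin II. It had the highest signal of all 610 in replicate 2, at 1616, and 1281 in replicate 1. The S6k and kri peak, in the narrowest gap of the 20, had 1491 in replicate 1 and 1205 in replicate 2. S6k encodes the kinase of ribosomal protein S6 that acts downstream of TOR.

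Of these 20 peaks, 4 lie beside genes of the mitochondrion, grouped here after their values were seen. CIA30, an assembly factor of respiratory complex I, shares its gap with CG7601, and the peak there had 1381 in replicate 1 and 986 in replicate 2. Between Art3, an arginine methyltransferase gene, and mRpS10, of the small mitochondrial ribosomal subunit, it had 1085 and 994. The mRpS23 gene, of the same subunit, faces CenG1A, which encodes a GTPase-activating protein, and the values were 954 and 723. Lon, a protease of the mitochondrial matrix, faces PIG-F, of glycolipid anchor synthesis, with 800.04 in replicate 1 and 746 in replicate 2. In these 4 gaps replicate 1 was the higher library, by 1.40-fold at CIA30, 1.09-fold at mRpS10, 1.32-fold at mRpS23 and 1.07-fold at Lon.

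Genes of membranes, the cytoskeleton and signalling were also among them. CHMP2B, of the ESCRT-III complex that cuts membrane necks, shares its gap with Tcs5, of the KEOPS complex that modifies transfer RNA. The peak there had a signal of 1435 in replicate 1 and 849.6 in replicate 2, and its ratio of 1.69 was the widest of the 20. Atat, a tubulin acetyltransferase, and Shc, an adaptor of receptor tyrosine kinases, flank a peak with 1395 and 882. The Wsck and atl peak went the other way, with 575 in replicate 1 and 791 in replicate 2, and atl encodes atlastin, a GTPase that fuses membranes of the endoplasmic reticulum. Galk, for galactokinase, faces CG5068, and the peak had 1201 and 1064. Mtl, a GTPase of the Rac family, faces CG5611 with 1139.7 and 832. For Cirl, the fly latrophilin receptor, and CG8642 the replicates were nearly equal, at 819 and 820.1.

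The remaining peaks of the 20 flank genes of several roles. Arl1, a GTPase of the Golgi, and brm, the ATPase of the Brahma chromatin remodelling complex, share a gap of 266 bp with the summit 1 bp from its middle, and the signal was 709 in replicate 1 and 671 in replicate 2. The stwl gene, known for maintenance of female germline stem cells, faces CG3919 with 709 and 639. Sf3b3, of the SF3B splicing complex, faces CG42553 with 663 and 642. Pal1, a lyase of peptide amidation, faces Pdrg1 with 946 and 800.3. Replicate 1 was the higher in all of these 4 gaps, by at most 1.18-fold. The CG9663 and CG3277 peak had 876 and 1052, that between CG13390 and CG17294 had 799 and 678, and that between Reg-5 and asRNA:CR43257 had 784 and 562. The last is the only 1 of the 20 with a non-coding partner.

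The replicate lists ranked 4 divergent-gap peaks most differently. Between CG46385 and asRNA:CR45108 the signal was 32.8 in replicate 1 and 75.3 in replicate 2, and between Pfdn2, of the prefoldin chaperone, and Noc1 it was 33.0 and 77.4. The reverse was found between CG13185 and cuff, at 98.4 in replicate 1 and 35.2 in replicate 2, and between CG1523 and CG1647, at 73.5 and 35.0. Of the 4, only the Pfdn2 and Noc1 peak overlapped no other conservative peak. For the other peaks the overlapping peak was stronger, with a signal of 390.3 beside CG46385, 195 beside cuff and 145 beside CG1523.

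Summits tended to the middle in gaps of 200 to 400 bp, and less so at other widths. The gaps of the 610 peaks were 34 to 984 bp wide with a median of 329 bp, and the summit lay a median of 52.2 bp from the gap midpoint, with quartiles of 21 and 114.6 bp. The nearer start site was a median of 97.5 bp away in gaps of 200 to 300 bp, and over all 610 the quartiles of that distance were 66.2 and 136 bp. In 296 peaks, 48.5% (44.6 to 52.5), the summit was within 50 bp of the midpoint. In 396, or 64.9% (61.0 to 68.6), it fell in the central 50% of the gap. The same share was 44.2% (39.9 to 48.6) for 498 unselected peaks that meet the same rule, that is, peaks of the ranked list of both replicates that overlap no thresholded peak. Those lay in wider gaps, with a median of 449.5 bp. By strand, 290 summits were nearer the minus-strand site, 314 nearer the plus-strand site and 6 at equal distance.

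Summit positions were compared between the libraries. The matched summits of replicate 1 and replicate 2 lay a median of 24 bp apart. The matched summit stayed inside the gap for 590 of 608 matches in replicate 1 and 587 of 605 in replicate 2. The median distance from the midpoint was 58.5 bp in replicate 1 and 54 bp in replicate 2. Of the 603 peaks matched in both replicates, 496 had both summits on the same side of the midpoint, and 295 of the 310 whose conservative summit was more than 50 bp off the middle did. Each match is the replicate peak nearest to the conservative summit, which favours such agreement.

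How the summit sat depended on the width of the gap. In gaps of 200 to 300 bp, 162 of 194 summits were in the central 50%, with a median distance of 27.8 bp from the midpoint, and the median signal was 254. The central 50% held 102 of 140 summits at 300 to 400 bp, 40 of 81 at 400 to 500 bp and 45 of 94 at 500 to 750 bp. It held 12 of 22 in gaps up to 100 bp and 26 of 43 at 100 to 200 bp. In gaps of 750 to 1000 bp only 9 of 36 were central, and the median distance to the nearer start site was 119.5 bp, beside the 123 bp seen in gaps of 300 to 400 bp and the 136 bp in gaps of 500 to 750 bp. These are class medians, and single summits varied. The Galk and CG5068 peak, 35 bp from the CG5068 site in a gap of 619 bp, and the Sf3b3 and CG42553 peak, 25 bp from the CG42553 site in a gap of 708 bp, lie near an end. The rank correlation of gap width with signal over the 610 peaks was -0.13, a weak relation given as a description only.

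**Figure D3:**
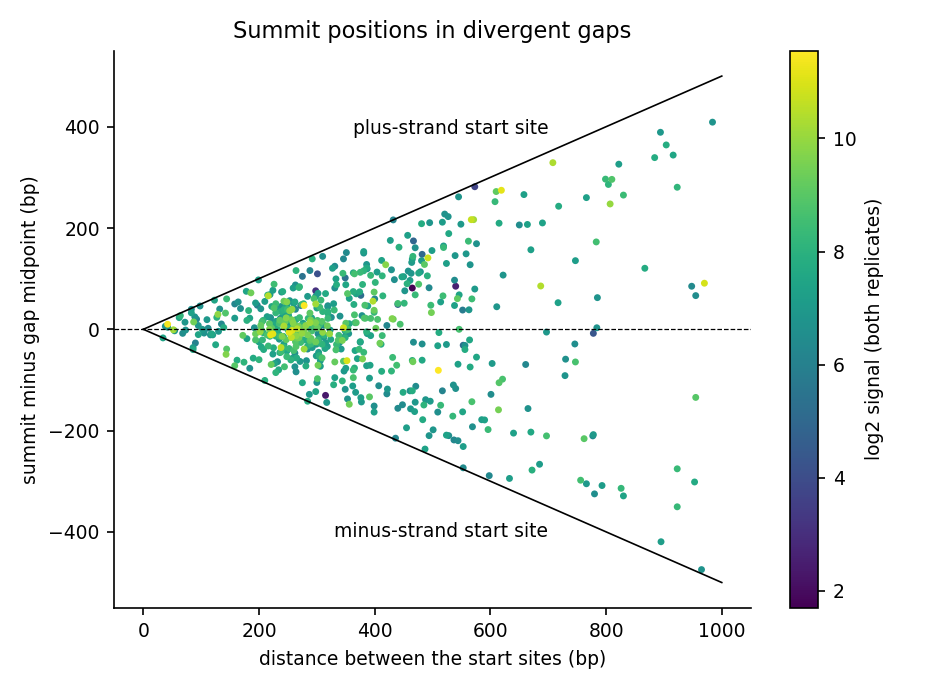
Distance of each of the 610 summits from the midpoint of its gap (vertical axis, bp, positive towards the plus-strand gene) against the width of the gap (horizontal axis, bp). The solid lines are the start sites, the dashed line is the midpoint and the colour is the log2 of the signal in both replicates. Summits in gaps of 200 to 300 bp crowd the midpoint, and those in wide gaps spread towards both sites.

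Of the 578 gaps, 32 held 2 divergent-gap peaks. Their summits were 199 to 631 bp apart with a median of 202.5 bp, and in 31 of the 32 the distance was under 300 bp. In 30 of the 32 the peaks overlapped, and in 16 both had a signal of at least 100. No neighbouring summits anywhere among the autosomal conservative peaks were closer than 199 bp, and 207 pairs lay under 300 bp while 22 lay from 300 to 600 bp apart, so this spacing was found throughout the list and not in divergent gaps alone. The gap between Patsas and ThrRS, the gene for threonyl-tRNA synthetase, held peaks of 673 and 298 with summits 208 bp apart. At Hsc70-5, a mitochondrial chaperone gene, and CG8531 the peaks had signals of 440.5 and 17.1.

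Summits in divergent gaps lay in DNA of low G+C content. In windows of the summit and 50 bases on each side the median G+C content was 29.7% for divergent-gap peaks (quartiles 24.8 and 37.6) and 34.7% for other promoter peaks. It was 41.6% for the 498 unselected peaks in divergent gaps. Split by signal into 3 parts of 203 or 204 peaks, the strongest had a median of 27.7%, the middle 29.7% and the weakest 32.7%, and the other promoter peaks showed the same order, at 29.7%, 34.7% and 39.6%. Gap width went with the composition of these windows as well, from 26.7% in gaps of 200 to 300 bp to 44.1% in the 22 peaks in gaps of at most 100 bp. In gaps that narrow the window also takes in DNA outside the gap. Much of the low G+C content belonged to the gaps themselves. At the midpoints of gaps of 200 to 500 bp it was 25.7% (quartiles 21.8 and 29.7) for the 396 gaps with a summit and 28.7% (23.8 and 35.6) for the 757 without. The quartile ranges overlap, and the median of the gaps with a summit is the lower.

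**Figure D4:**
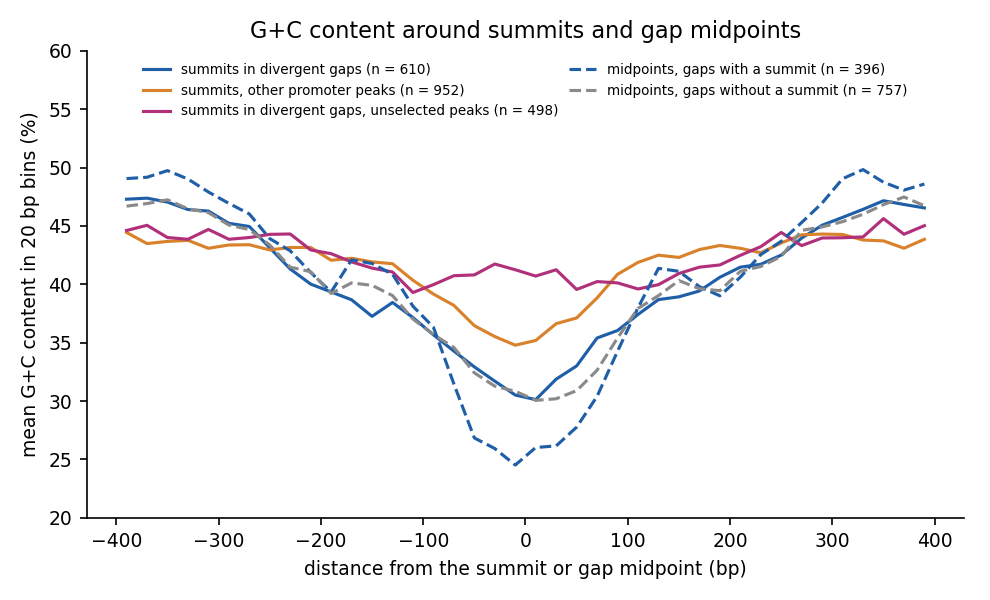
Mean G+C content in bins of 20 bp (vertical axis, %) by distance from the summit (solid lines) or from the gap midpoint in gaps of 200 to 500 bp (dashed lines). Divergent-gap peaks fall to 30.1% at the summit and reach 47.3% at the left edge, and unselected peaks in divergent gaps nowhere fall below 39.3%. Midpoints of gaps without a summit dip to 30.1%, and midpoints of gaps with a summit dip lower, to 24.5%.

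Motifs known from fly promoters were searched on both strands of the same windows. The DNA replication-related element TATCGATA was found in 33 of 610 divergent-gap windows, or 5.41% (3.88 to 7.50). It was in 2.00% (1.28 to 3.10) of other promoter windows, but in 6.22% (4.42 to 8.70) of the 498 windows of unselected peaks in divergent gaps. The BEAF-32 core CGATA, which lies within TATCGATA, behaved alike, at 26.6% (23.2 to 30.2), 17.1% (14.9 to 19.6) and 27.1% (23.4 to 31.2). In these windows the intervals of divergent-gap peaks and of unselected peaks in divergent gaps overlap for both motifs. The 137 copies of TATCGATA in the 578 whole gaps lay a median of 34.5 bp from the nearer start site and 109.5 bp from the summit, and 104 of them were nearer the start site than the summit. Gaps without a summit had 277 copies, at a similar median of 36.5 bp from the nearer start site. As in the Atat and Shc gap printed above, the element was usually beside the summit rather than under it. Whole gaps of 200 to 500 bp held it in 19.4% (15.8 to 23.6) of cases with a summit and 14.1% (11.8 to 16.8) without. In gaps of 500 to 1000 bp the shares were farther apart, at 28.2% (20.8 to 37.0) with a summit and 12.4% (9.91 to 15.5) without. They were 18.6% (9.74 to 32.6) and 9.70% (7.05 to 13.2) in gaps of 100 to 200 bp, and 9.09% (2.53 to 27.8) and 11.5% (8.67 to 15.0) in gaps up to 100 bp. Gaps with a summit also differ in their genes, as 547 of the 578 lie between coding genes, against 2104 of all 2628 divergent gaps. The contrasts of gaps with and without a summit, here and for G+C content and the TATA box, were not split by kind of gene.

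Other motifs gave the following shares. The TATA box TATAAA was in 29.3% (25.9 to 33.1) of divergent-gap windows, 18.8% of other promoter windows and 13.7% of windows of unselected peaks in divergent gaps. At midpoints of gaps of 200 to 500 bp it was in 37.6% with a summit and 25.9% without. These letters follow A and T content, whose part in the difference was not tested. The GAGA element GAGAG was in 6.39% of divergent-gap windows and 12.4% of the unselected ones. Ohler motif 1, the site of M1BP, was in 5 of 610 windows, and Ohler motif 7 in 4.43%, close to the 4.62% of unselected peaks in divergent gaps. The Zelda site CAGGTAG was in 2 windows. CCAAT was in 17.2% of divergent-gap windows and 18.5% of the unselected ones, the GATA site GATAAG in 5.74% and 6.22%, the Pho core GCCAT in 12.3% and 18.7%, and the CTCF core in 3.44% and 4.42%. The Initiator was in 7.38% (5.56 to 9.73) and 11.04% (8.58 to 14.1), and the E-box CAGCTG in 2.79% and 4.82%. The other motifs were in few windows of divergent-gap and of unselected peaks: the inner part of Ohler motif 1 in 8 and 14, Ohler motif 6 in 5 and 2, the E-box CACGTG in 1 and 7, the downstream promoter element in 7 and 6, the Ets site in 11 and 13, the AP-1 site in 6 and 8 and the Su(Hw) core in 7 and 4. Among the 20 motifs the TATA box, Ohler motif 6 and the Su(Hw) core had the higher share at divergent-gap peaks than at unselected peaks in divergent gaps, and only for the TATA box were the intervals apart in that direction.

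Words of 8 bases were ranked on chromosome 2 by the difference in share between divergent-gap windows and windows of unselected promoter peaks, and counted again on 3L and 3R. The leading word was ATTTTTAA with its reverse complement TTAAAAAT. On 3L and 3R it was in 8.38% (5.90 to 11.8) of 346 divergent-gap windows, 7.47% (5.44 to 10.2) of 482 other promoter windows and 1.47% (1.19 to 1.81) of 5862 unselected promoter windows. It was also in 8.50% (6.17 to 11.6) of the 412 midpoints of gaps of 200 to 500 bp without a summit, so its share did not separate gaps with a summit from gaps without. The words that followed, such as AAATAAAA and AAATTAAA, were also made of A and T alone.

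The 610 peaks bordered 1181 genes, 1149 of them protein coding. That is 24.97% (23.7 to 26.2) of the 4601 autosomal coding genes beside a divergent gap, which is the background for the lists below. These intervals treat genes as independent, although some genes of a list share a gap and its peak. Among them are Pex16 and Pex14 of the peroxisome list. In the membrane traffic list Cog3 and Sec5 share a gap, as do Exo84 and Vps2. Genes of membrane traffic were at the upper end among the larger lists. Of 48 beside a divergent gap, 24 bordered a summit, or 50% (36.4 to 63.6). They include CHMP2B and Vps33B, with Vps33B facing Fur1 and a signal of 314 in replicate 1 and 317 in replicate 2. Peroxisome genes gave 6 of 11, or 54.5% (28.0 to 78.7), among them Pex10, a ubiquitin ligase of peroxisomal import, with 378 and 268 beside CG12099. Pex6, an ATPase of the same import machinery, faces Taf5, of the general factor TFIID, with 298 and 296. Autophagy genes gave 6 of 14, or 42.9% (21.4 to 67.4). Atg17, a scaffold of the autophagy initiation complex, faces Xe7 with 437 and 319, and Atg18a, a lipid-binding protein of the same pathway, faces ERR with 359 and 309.8.

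**Figure D5:**
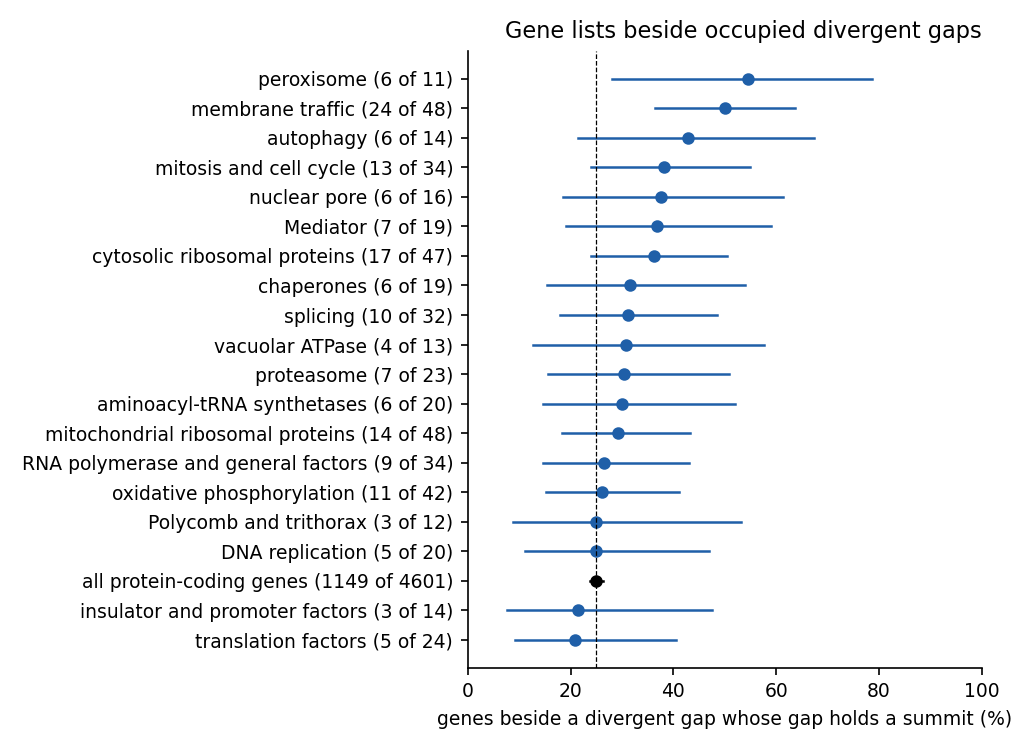
Share of the genes of each list beside a divergent gap whose gap held a summit (horizontal axis, %), for the lists with at least 10 such genes. Points are shares, lines Wilson 95% intervals, and the dashed line is the 24.97% of all protein-coding genes. Membrane traffic and peroxisome genes lie highest, and most intervals include the background. The intervals treat genes as independent, although some genes share a gap.

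Lists for gene expression and growth lay nearer the background. Cytosolic ribosomal protein genes gave 17 of 47, or 36.2% (24.0 to 50.5), with RpL34b facing CG8132 (352 in replicate 1, 369 in replicate 2) and RpL32 facing CG7943 (261 and 239.9). Mitochondrial ribosomal protein genes gave 14 of 48, or 29.2% (18.2 to 43.2), and translation factors 5 of 24, or 20.8% (9.24 to 40.5). In the latter eIF3c, of an initiation factor, faces the peptide receptor gene CCHa1-R with 307.2 and 254, and eIF1 faces RpL28 with 131.6 and 169. For RNA polymerases and general factors the count was 9 of 34, with Brf, of the polymerase III factor TFIIIB, at 379 and 321 beside sds22, and Polr2B, a large subunit of RNA polymerase II, at 302 and 299.5 beside 140up. Mediator genes gave 7 of 19, and MED27 faces elm with 468 and 314. Splicing genes gave 10 of 32, with Sf3b6 facing Tnpo at 178 and 203. Among the aminoacyl-tRNA synthetases 6 of 20 bordered a summit, and GluProRS faces AP-1sigma, of a clathrin adaptor, with 357 and 309.6. The intervals of the Mediator, splicing and synthetase lists all include the background.

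Cell division and chromatin lists gave further named pairs. Mitosis and cell cycle genes gave 13 of 34, or 38.2% (23.9 to 55.0). Cdk12, counted in this list though a kinase of transcription elongation, faces SAK with 487 and 372. SAK, the kinase of centriole duplication, is not in the list. DNA replication genes gave 5 of 20, with PolD2, of DNA polymerase delta, at 275 and 249.6 beside CG13933. Nuclear pore genes gave 6 of 16, with Nup37 facing RpS27 at 275.5 and 200.1 and Nup133 facing wfs1 at 61.1 and 112. Insulator and promoter factor genes gave 3 of 14, or 21.4% (7.57 to 47.6). These are Cp190, an insulator cofactor, at 440.5 and 469.6 beside CG4338, M1BP at 165 and 150.5 beside CG8202, and BEAF-32 itself, whose gap with asRNA:CR42254 had a series signal of 159. BEAF-32 was named after its value was seen, and the interval of this list includes the background. Polycomb and trithorax genes gave 3 of 12, brm and Sfmbt among them, and Sfmbt faces CG5439 with 106 and 132.

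Lists of metabolism and protein turnover were close to the background too. Oxidative phosphorylation genes gave 11 of 42, or 26.2% (15.3 to 41.1), with ND-MWFE, of complex I, at 344 and 231 beside TppII and blw, of ATP synthase, at 274 and 187 beside CG42260. Proteasome genes gave 7 of 23, with Prosbeta2, a core subunit, facing mRpL39 at 135 and 191, and Rpn6, of the lid, facing ave at 158 and 114.8. Chaperone genes gave 6 of 19, and DnaJ-H faces Sirt1, a deacetylase gene, with 152 and 236. Vacuolar ATPase genes gave 4 of 13. Of these Vha68-1 faces mTor, the TOR kinase gene, with 190.4 and 140.04, and Vha13 faces Nup58 with 87.3 and 60.7. Of 3 mitochondrial import genes only Tom7 bordered a summit, at 80.5 and 85.3. Developmental lists could hardly be read in this way, because few of their genes border a divergent gap: none of 7 dorsal-ventral and mesoderm genes, of 3 muscle genes, of 1 Hox or segmentation gene and of 1 neuronal gene bordered a summit.

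Both genes of a pair came from the same list in 8 divergent gaps of the genome, and 5 of the 8 held a summit. The pairs were singled out after their values were seen. They were Bub3 and Cap-D2 (mitosis), Cog3 and Sec5 (Golgi tethering and exocyst), and Exo84 and Vps2 (exocyst and ESCRT-III). The others were Pex16 and Pex14 (peroxisome), and RPA1 and Mcm2 (single-strand binding and helicase of DNA replication). The last had a signal of 175 in replicate 1 and 122.9 in replicate 2. The 3 without a summit were Ibf2 and Ibf1, insv and Elba2, and Taf10b and Taf10. Across all lists, gaps with a listed gene on both sides held a summit in 17 of 38 cases, or 44.7% (30.1 to 60.3). The share was 28.8% (24.8 to 33.1) of 445 gaps with a listed gene on 1 side and 20.2% (18.5 to 21.9) of 2145 gaps with none. The lists hold coding genes only, and gaps between coding genes were themselves occupied in 26.0% of cases.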

How the data were processed

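The data are peak lists of 2 libraries on the dm6 assembly, 1 group of 2 replicates, as described above. According to the listings deposited beside the peaks, the authors ranked and thresholded them by the irreproducible discovery rate. Which peak caller and aligner they used is not given here. The signal is a deposited column of unstated scaling, and it served only to rank and describe peaks. These lists give no read counts, and depth is therefore unknown.

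Start sites of all genes other than transposable elements were taken from Ensembl release 115 (BDGP6.54), and sequence from RefSeq Release 6. A summit is the deposited start plus the deposited summit position. The members and lists were chosen with earlier results of these data known. No test was run, because there is 1 group and peaks are not replicates. Named pairs are the 20 of highest signal, the 2 highest of each of 24 gene lists, the 4 ranked most differently by the replicates, those at the 1000 bp limit and that on chromosome 4. Windows around summits were searched for 20 motifs. Peaks were intersected, windows read and Wilson intervals computed with Python 3.11.15, numpy 2.4.6 and scipy 1.17.1, and the functions were tested on simulated sites. The alternatives were other start sites, gap limits, peak lists, overlaps and windows, and each replicate alone.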

Additional observations from a re-analysis of the deposited data

How the results depend on the processing

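The count of divergent-gap peaks stayed between 480 and 632 under every alternative other than peaks at or above the median signal, which left 397. With those peaks, 14.8% of gaps were occupied, the median signal was 296, the offset from the midpoint 45 bp, and 96.98% passed in both replicates. With protein-coding start sites only, 26.1% of gaps were occupied; the share between coding genes was then fixed by construction and not computed. With sites at most 500 bp apart, the median signal was 211, the offset 39.5 bp, and 96.9% lay between coding genes. The median signal was 206 with 1 peak per gap. The other thresholded list of the series gave a median signal of 185 and an offset of 55.5 bp. With 1 replicate left out, occupancy was 18.8% to 20.8%, the median signal 106 to 117, the offset 48.8 to 56.0 bp and the median G+C content 28.7% to 30.7%; passing in both could not be computed. A reciprocal overlap of 50% lowered the share passing in both to 58.7%. TATCGATA was in 1.80% of windows with 25 bases on each side of the summit and 11.97% with 100, and the leading word in 4.62% and 13.9%. Median G+C content was 32.3% with 100 bases on each side. Compared with gaps without a summit, a choice made after seeing the data (as were the G+C alternatives), the leading word was TAAAATTA, in 6.07% (4.004 to 9.10) of divergent-gap windows on 3L and 3R and 4.13% (2.59 to 6.51) of gaps without a summit, with overlapping intervals. No paired analysis was possible because there is 1 group. Unknown depth and an unstated signal scale limit every comparison of signal between libraries.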
